A study of Mus musculus with 5 samples.

Results

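The 10 genes described here encode surface molecules with which blood leukocytes hold on to vessel walls and to each other: the integrin alpha chains Itgal (ENSMUSG00000030830), Itgam (ENSMUSG00000030786) and Itga4 (ENSMUSG00000027009), the integrin beta chains Itgb1 (ENSMUSG00000025809), Itgb2 (ENSMUSG00000000290) and Itgb7 (ENSMUSG00000001281), the immunoglobulin-family molecules Pecam1 (ENSMUSG00000020717) and Icam2 (ENSMUSG00000001029), and the mucins Spn (ENSMUSG00000051457) and Selplg (ENSMUSG00000048163). They were taken by gene symbol and are 10 of the 33696 genes listed for every library; all 10 were detected. They were followed across the cell classes of mouse blood and across the conditions of a mouse model of HFpEF (heart failure in which the ejection fraction is preserved), by droplet single-cell RNA sequencing that counts unique molecular identifiers (UMIs, 1 per captured transcript). All mice were C57BL/6N. 1 library came from mice given a high-fat diet (HFD) with L-NAME, an inhibitor of endothelial nitric oxide synthase, for 15 weeks and NO2-OA (nitro-oleic acid) during the last 4 weeks. 2 libraries came from mice given HFD + L-NAME without NO2-OA, and 2 from mice on regular chow. In all groups the blood was kept in EDTA, mononuclear cells were isolated over Ficoll, red cells were removed by lysis, and cells were stored frozen before capture. The labels do not say whether each library is a separate animal or a pool, so p-values here measure the spread between libraries.

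Integrins are pairs of 1 alpha and 1 beta chain that switch from a bent, resting form to an extended form that binds its ligand. Itgal and Itgam each pair with Itgb2, to make LFA-1 and Mac-1, which bind ICAM molecules on endothelium. Itga4 pairs with Itgb1 to bind VCAM1 on inflamed endothelium, or with Itgb7 to bind MAdCAM1 on the vessels of the gut. Selplg, known as PSGL-1, is the main leukocyte ligand of the selectins and lets cells roll along the wall; Icam2 is a ligand of LFA-1, Pecam1 takes part in the passage between endothelial cells, and Spn, known as CD43, is a long, heavily sialylated mucin. In the mouse, high Spn marks the patrolling, non-classical monocyte.

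The sequences upstream of 3 of the genes are shown first, because their levels below form 3 patterns: Itgam was high in myeloid and NK-like cells and low elsewhere, Spn was high in non-classical monocyte-like, NK-like and T cells and near 0 in B-like cells, and Itgb1 was counted in every class. They are the 250 bases before the annotated start, from RefSeq on GRCm38.p6, which held 5 of the 10 genes. For Itgam this is chr7:128062390-128062639 on the plus strand, for Spn chr7:127137824-127138073 on the minus strand and for Itgb1 chr8:128685404-128685653 on the plus strand. The deposited counts were made on mm39, so these coordinates serve the sequences alone. Capitals mark GAGGAA or its reverse complement TTCCTC, the core of motifs bound by PU.1, a factor of myeloid and B cells, and GGGTGGG or its reverse complement CCCACCC, a motif known to bind Sp1 in the human SPN promoter.
Itgam: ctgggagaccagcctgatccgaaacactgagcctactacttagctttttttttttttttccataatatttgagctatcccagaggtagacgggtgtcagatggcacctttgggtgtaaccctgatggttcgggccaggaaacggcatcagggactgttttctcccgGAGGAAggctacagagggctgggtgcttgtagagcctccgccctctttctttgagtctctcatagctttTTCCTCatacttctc
Spn: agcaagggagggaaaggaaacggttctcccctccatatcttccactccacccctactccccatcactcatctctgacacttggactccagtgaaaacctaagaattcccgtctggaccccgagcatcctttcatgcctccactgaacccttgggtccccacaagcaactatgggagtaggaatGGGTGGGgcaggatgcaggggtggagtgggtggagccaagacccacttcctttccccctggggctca
Itgb1: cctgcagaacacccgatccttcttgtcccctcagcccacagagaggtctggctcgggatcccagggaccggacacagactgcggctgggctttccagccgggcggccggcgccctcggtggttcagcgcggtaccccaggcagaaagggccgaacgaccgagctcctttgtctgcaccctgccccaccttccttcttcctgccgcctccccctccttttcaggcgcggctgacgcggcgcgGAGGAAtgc
GAGGAA, searched on both strands, was found in 2 of the 5 promoters, Itgam and Itgb1, and in 23.3% of all 32851 promoters of the same length. In Itgam it lies from 84 to 79 bases before the start on the gene's strand and from 15 to 10 bases before it on the opposite strand. In Itgb1 it lies from 9 to 4 bases before the start. GGGTGGG, also searched on both strands, was found in Itga4, Itgb7 and Spn and in 15.8% of all promoters. In Spn it lies from 67 to 61 bases before the start. These matches are a description of the letters, and no binding was measured. Spn, Itgal and Itgam lie on chromosome 7 in this annotation, with 8 protein-coding genes between Spn and Itgal and 35 between Itgal and Itgam, and Icam2 and Pecam1 lie on chromosome 11 with 2 protein-coding genes between them.

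Of all barcodes, 54971 cells were kept, 12623 of them with NO2-OA, 10696 and 7165 with HFD + L-NAME (replicates 1 and 2, an order kept below) and 14771 and 9716 with chow. Library totals ran between 71216133 and 122022000 UMIs. Cells fell into 14 classes: 11 were named from marker genes that did not include the 10 genes, written as B-like and so on since no sort defined them, and 3 are called by their leading genes. The Agbl1- and Iglc1-led and the Sox5- and Lmo7-led clusters scored best for B-cell markers and the Ccl5- and Klrk1-led cluster for CD8 T-cell markers, but none of those markers was among their 10 leading genes. Foxp3 was counted in 21.2% of regulatory T-like cells and in at most 0.710% of the cells of any other tested class. Summed gamma-delta T-cell markers were also highest there, at 231 to 418 CPM, against at most 186 CPM in the other tested classes. The class was thus not shown to hold regulatory T cells alone. 10 classes held at least 50 cells in every library and were tested between conditions. Neutrophil-like, erythroid-like, NK-like and cavity-type macrophage-like cells did not, and 0.784% of kept cells stayed unnamed. Some libraries stood apart. Cells with a UMI of Pf4, Ppbp, Gp9 or Tubb1, which mark platelets, made up 7.69% to 13.4% of 8 classes in the NO2-OA library, against 42.7% to 63.9% with HFD + L-NAME and 58.1% to 80.9% with chow. Cavity-type macrophage-like cells, which carried Prg4 and C1qa, were found in the replicate 2 libraries alone. The NO2-OA library exists in the replicate 1 set alone, so fold changes within that set are given beside pooled ones. Any pair of libraries shared 28 to 77 barcodes.

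Levels are given first as CPM, the gene's UMIs over all UMIs of the class in a library times 1000000, with mean ± SD over the libraries with at least 50 cells. They describe the classes without a test, since classes were made from the same cells; the 10 genes and 62 further adhesion genes were kept out of the genes used for clustering. Itgal was highest in non-classical monocyte-like cells, at 1064 ± 113 CPM (n = 5), 2.98 times the level of NK-like cells at 356 ± 43.7 CPM (n = 4). The ranges of these neighbours did not overlap. Neutrophil-like cells (306 ± 11.3 CPM, n = 4), classical monocyte-like cells (256 ± 50.2 CPM) and platelet-like cells (209 ± 33.7 CPM, n = 5 each) followed, each overlapping the next. Among lymphocytes other than NK-like cells Itgal ran from 152 ± 11.9 CPM in regulatory T-like cells to 43.8 ± 3.34 CPM in B-like and 39.2 ± 5.72 CPM in Agbl1- and Iglc1-led cells (n = 5 each). It was nearly absent from cavity-type macrophage-like cells, at 7.32 CPM in the HFD + L-NAME library and 6.23 CPM in the chow library that held them.

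Itgam drew a sharp line between classes. It reached 1161 and 1282 CPM in the cavity-type macrophage-like cells of the HFD + L-NAME and the chow library, 633 ± 167 CPM in neutrophil-like cells (n = 4), 414 ± 25.2 CPM in non-classical and 326 ± 51.7 CPM in classical monocyte-like cells (n = 5 each) and 217 ± 19.0 CPM in NK-like cells (n = 4). None of these neighbours overlapped. The next class, the Sox5- and Lmo7-led cluster, stood more than 10 times lower than NK-like cells at 20.9 ± 17.8 CPM, with 14.1 CPM in the NO2-OA library, 12.6 and 50.1 CPM in the HFD + L-NAME libraries and 3.95 and 23.9 CPM in the chow libraries. Both replicate 2 libraries were thus above all replicate 1 libraries there. All other classes had means of at most 7.35 CPM. Among neutrophil-like cells a small cluster led by the granule genes Camp, Ngp and Ltf had 1170 CPM of Itgam in the NO2-OA library, from 96 cells, against 695 CPM in the larger cluster led by Acod1, Slc7a11 and Hdc. In the other libraries the small cluster held only 16 and 21 cells with HFD + L-NAME (658 and 804 CPM, against 597 and 451 CPM in the larger one) and 6 cells and 1 cell with chow (793 and 716 CPM, against 551 and 567 CPM, the last from 7 cells). Of its barcodes, 45.7% had been removed as predicted doublets.

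Itga4 was spread more evenly over lymphocytes and monocytes than Itgam. Non-classical monocyte-like cells led at 1178 ± 169 CPM, followed by NK-like cells at 836 ± 38.0 CPM and regulatory T-like cells at 586 ± 65.1 CPM (n = 5, 4 and 5). From there, the ranges of neighbouring classes overlapped from regulatory T-like down to neutrophil-like cells at 201 ± 24.9 CPM (n = 4), with B-like cells at 430.2 ± 23.6 CPM and CD4 T-like cells at 366 ± 107 CPM (n = 5 each). Platelet-like cells had 16.7 ± 12.8 CPM, the lowest level of the 14 classes.

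The beta chains divided the classes differently. Itgb1 was highest in platelet-like cells, at 1953 ± 117 CPM (n = 5), 2.79 times the 699 ± 41.3 CPM of cavity-type macrophage-like cells (n = 2). It was high in both platelet-like clusters, at 1481 to 2159 CPM in the shallower one, which made up most of the class in the NO2-OA and both replicate 2 libraries, and at 1834 to 2309 CPM in the deeper one. Cavity-type macrophage-like cells (670.2 CPM with HFD + L-NAME and 729 CPM with chow), NK-like cells (658 ± 73.2 CPM, n = 4) and regulatory T-like cells (577 ± 52.6 CPM, n = 5) followed with overlapping ranges. Conventional T-like and B-like cells were at the low end, with 54.8 ± 20.03 CPM in CD4 T-like, 51.5 ± 8.77 CPM in CD8 T-like and 53.8 ± 16.0 CPM in B-like cells (n = 5 each). Itgb2 was highest in cavity-type macrophage-like cells, at 844 and 1100 CPM, then in non-classical monocyte-like cells at 649.5 ± 106 CPM (n = 5). Platelet-like, NK-like, classical monocyte-like and neutrophil-like cells overlapped between 317 and 336 CPM on average, and all other lymphocyte classes were at or below 94.2 ± 16.5 CPM. Itgb7 had another order: regulatory T-like cells at 161 ± 24.0 CPM overlapped classical monocyte-like cells at 126 ± 11.2 CPM, CD4 and CD8 T-like cells had 88.2 ± 15.1 and 82.8 ± 14.4 CPM (n = 5 each), and platelet-like cells 3.59 ± 3.12 CPM.

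**Figure D1:**
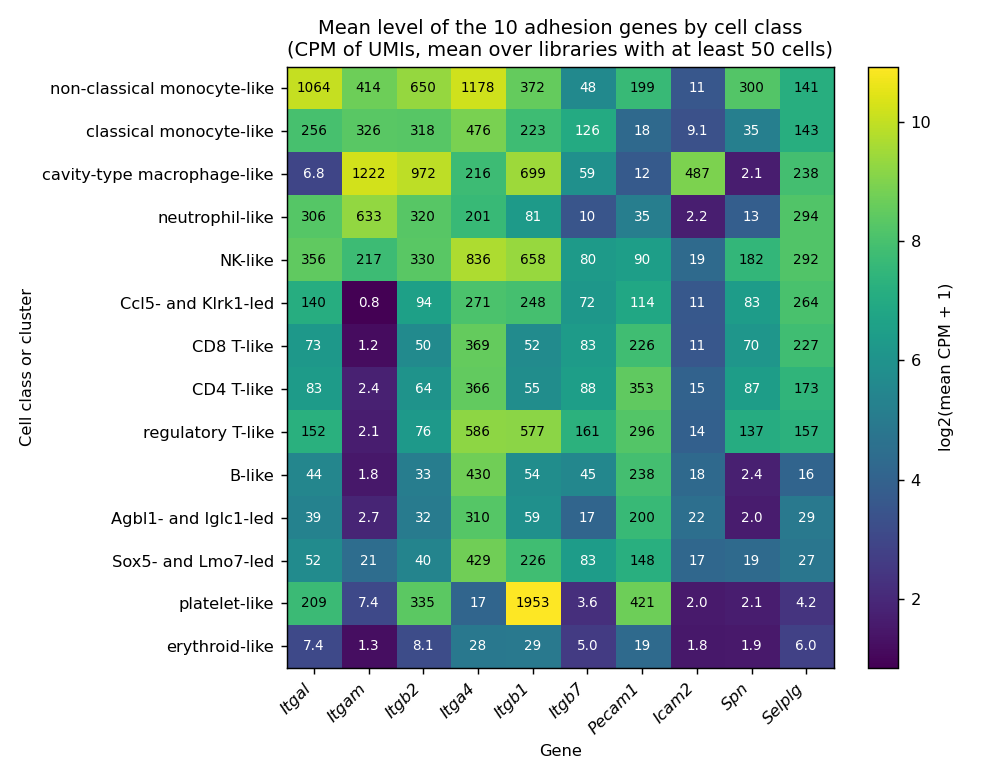
Mean level of each gene (columns) in each class (rows), as log2(mean CPM + 1) over the libraries with at least 50 cells of the class. Itgam is bright (green to yellow) in the cavity-type macrophage-like, neutrophil-like, monocyte-like and NK-like rows and dark elsewhere, Itgb1 peaks at 1953 CPM in platelet-like cells, and Icam2 at 487 CPM in cavity-type macrophage-like cells.

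Of the partner chains, Itgal and Itgb2 varied together most. Over the 50 sums of the 10 tested classes in 5 libraries, Itgb2 was the gene most like Itgal among the genes ranked. Its Pearson r was 0.94 on log2(CPM + 1), followed by Gsr at 0.91. The genes ranked averaged at least 4 log2 CPM. Genes with Gm-number, Rik or ENSMUS names and immunoglobulin and T-cell receptor segments were left out. The 50 points share libraries and depth, so r is a description. Cavity-type macrophage-like cells departed from this relation, with Itgb2 at 844 and 1100 CPM beside Itgal at 7.32 and 6.23 CPM. For Itga4 and its partners, r was 0.79 with Itgb7 and −0.47 with Itgb1, and for Itgam with Itgb2 it was 0.72. Platelet-like cells lie at the ends of both Itga4 comparisons, with means of 16.7 CPM of Itga4, 3.59 CPM of Itgb7 and 1953 CPM of Itgb1. They weigh on both r values, and r without them was not computed, so neither value describes the leukocyte classes alone. Selplg and Spn, the mucins, had r of 0.87. By the same measure, genes among the 2 most like each of the others were Gpx1 and Psap for Itgam, Gdap2 for Itga4, Prr13 and Map2k3 for Itgb1, Gsr and Rap2a for Itgb2, Pycard for Itgb7, Ppp1r13b and Tmem245 for Pecam1, Pik3r5 and Ppm1h for Spn, Ctcf and Arfgap2 for Icam2, and Slc9a9 and Otulinl for Selplg, with r from 0.79 to 0.97.

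**Figure D2:**
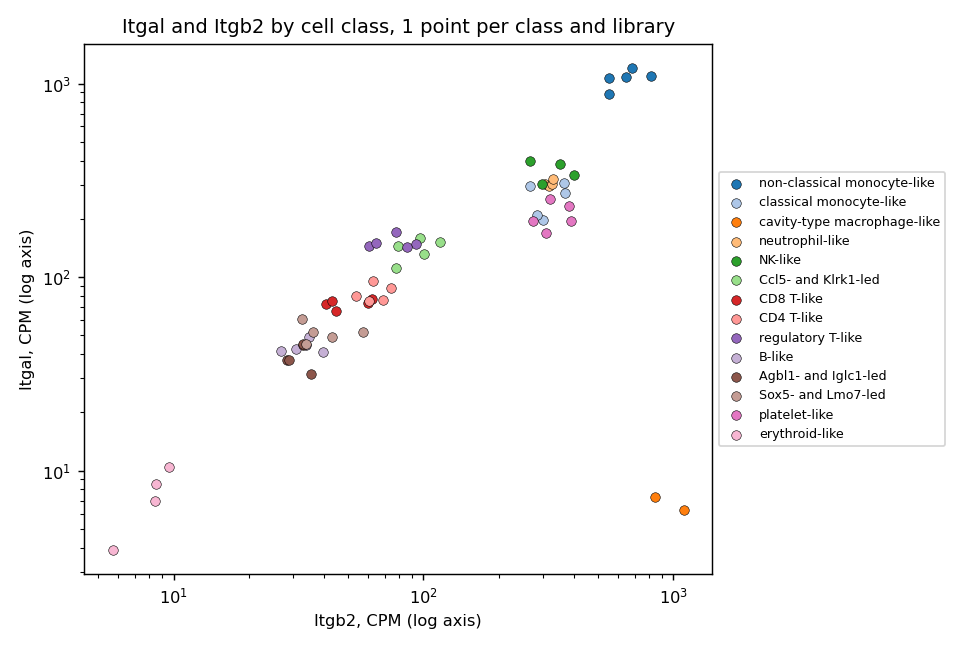
Itgal (y, CPM, log axis) against Itgb2 (x, CPM, log axis), 1 point for each class and library with at least 50 cells, coloured by class. The classes lie along a rising band, and the cavity-type macrophage-like points lie far below it with Itgal at 7.32 and 6.23 CPM.

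Of the immunoglobulin-family molecules, Pecam1 was highest in platelet-like cells at 421 ± 80.7 CPM and CD4 T-like cells at 353 ± 58.4 CPM, whose ranges overlapped, and stayed above 100 CPM on average in all lymphocyte classes but NK-like cells (90.2 ± 17.0 CPM). Within platelet-like cells Pecam1 differed by cluster: the shallower one had 529.9 CPM with NO2-OA, 554 and 449 CPM with HFD + L-NAME and 1140.3 and 736 CPM with chow, and the deeper one 311 CPM with NO2-OA, 350 and 378 CPM with HFD + L-NAME and 373 and 415 CPM with chow. The chow libraries were thus the highest in the shallower cluster and overlapped the HFD + L-NAME libraries in the deeper one. Some libraries held few cells of the shallower cluster: 70 with NO2-OA, 91 and 1531 with HFD + L-NAME and 63 and 211 with chow. The highest value, 1140.3 CPM, came from the 63 cells. The monocytes were split: non-classical monocyte-like cells had 199 ± 74.6 CPM and classical monocyte-like cells 18.4 ± 4.08 CPM (n = 5 each). Icam2 was concentrated in a single class. Cavity-type macrophage-like cells had 506 CPM in the HFD + L-NAME and 468 CPM in the chow library, 21.9 times the next class, and no other class exceeded 22.3 ± 4.46 CPM. The mucin Spn was highest in non-classical monocyte-like cells, 299.9 ± 59.2 CPM, then in NK-like cells, 182 ± 36.1 CPM, and regulatory T-like cells, 137 ± 23.1 CPM, and was close to 0 in B-like cells at 2.35 ± 0.710 CPM. Classical monocyte-like cells, at 35.5 ± 13.98 CPM, had far less than their non-classical counterparts. Selplg was broad, with overlapping neighbours from neutrophil-like cells at 294 ± 17.4 CPM and NK-like cells at 292 ± 46.1 CPM down to non-classical monocyte-like cells at 141 ± 21.0 CPM, and then a 4.88-fold step down to the Agbl1- and Iglc1-led cluster at 28.9 ± 2.21 CPM and B-like cells at 15.9 ± 1.86 CPM.

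HFD + L-NAME was then compared with chow in each tested class, which asks what the heart failure regimen did to adhesion genes in circulating cells. Pecam1, the member with the smallest p, stood in non-classical monocyte-like cells at 227 and 279 CPM with HFD + L-NAME and 249 CPM with NO2-OA, against 117 and 122 CPM with chow. With edgeR's quasi-likelihood test and Benjamini-Hochberg adjustment over all genes of a class, none of the 98 tests of a member in a class was called at a false discovery rate of 0.05, against 5 of 121647 tests of all genes (0.00411%), and DESeq2 called 0 members too. At an unadjusted p under 0.05 there were 4 of 98 (4.08%), beside 2.14% of all genes: Pecam1 and Selplg in non-classical monocyte-like, Spn in classical monocyte-like and Itgam in platelet-like cells. Libraries were apart with a log2 fold change of at least 0.5 in 2 of 98 tests on the higher side and 2 on the lower side (2.04% each), beside 5.02% and 5.19% of all genes. These last shares were below the background. The median log2 fold change of the 98 tests was −0.03. By gene, Itgal was below 0 in 9 of 10 classes, between −0.40 and 0.02, Itga4 and Pecam1 in 8 of 10, and Spn in 7 of 9, while Itgb7 was above 0 in 8 of 10 and Itgam in 7 of 9. The classes were cut from the same libraries, so these counts are not separate observations. Of all genes in a class, 46.1% (B-like) to 53.5% (platelet-like) were above 0.

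**Figure D3:**
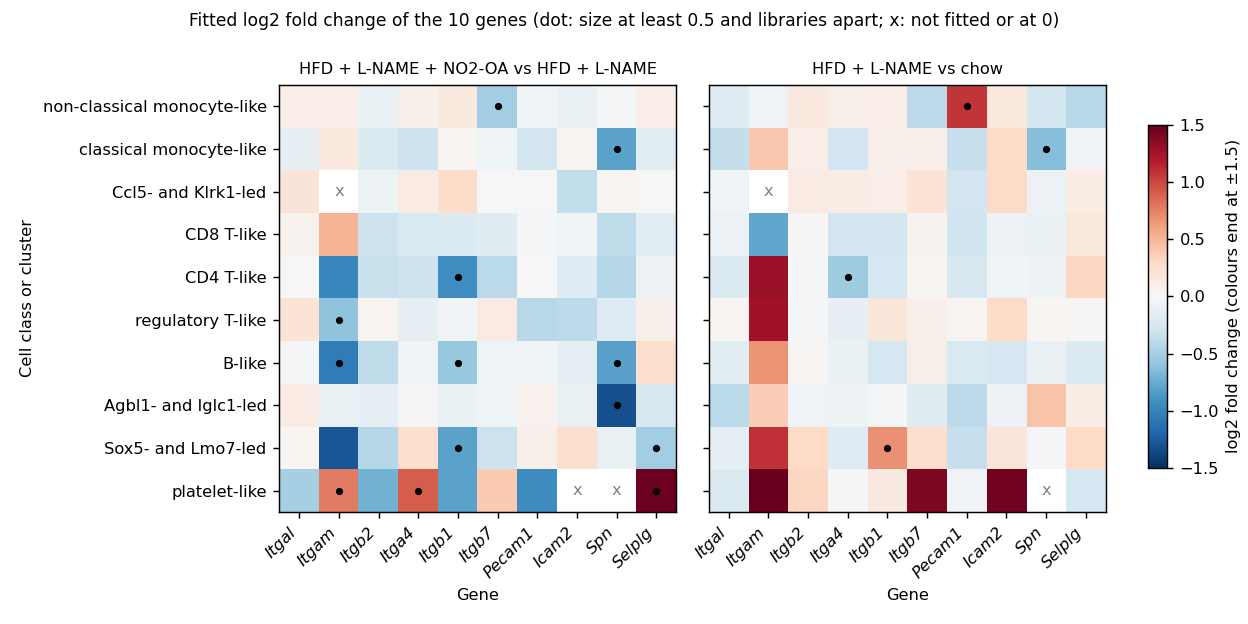
Fitted log2 fold change of each gene (columns) in each tested class (rows), for NO2-OA against HFD + L-NAME on the left and HFD + L-NAME against chow on the right; a dot marks a size of at least 0.5 with libraries apart, and an x a gene that was not fitted or had no UMI in the first-named group. The right panel has 4 dots, and the left panel has 13, of which the 3 red ones are all in platelet-like cells and the other 10 are blue, with none of the tests behind them passing the false discovery rate.

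For Pecam1 in non-classical monocyte-like cells the values rested on 752 and 706 UMIs from 368 and 216 cells with HFD + L-NAME and 685 UMIs from 337 cells with NO2-OA, against 699 and 688 UMIs from 746 and 548 cells with chow. The share of cells with a Pecam1 UMI was 56.0% and 59.3% with HFD + L-NAME and 61.7% with NO2-OA, against 41.7% and 42.3% with chow. After each cell was thinned to 2000 UMIs, the shares were 28.3% and 31.2% with HFD + L-NAME and 30.3% with NO2-OA, against 18.7% and 19.6% with chow, while classical monocyte-like cells, which carry little Pecam1 and were deeper at 11230 to 16715 median UMIs against 6857 to 10769, averaged 17.6% before and 3.40% after thinning. The 3 libraries of mice on the regimen were thus above both chow libraries in CPM and in both shares of cells. The log2 fold change of HFD + L-NAME over chow was 1.08 ± 0.19 (edgeR, adjusted p = 1.00), and 0.94 and 1.19 within the replicate 1 and 2 sets. In this class 5.24% of all genes were higher by at least 0.5 with libraries apart. The adjusted p depended on the alternatives: it ran between 0.00142 and 1.00, and passed with no filter on low counts (0.00142), without chow replicate 1 (0.0262) and without chow replicate 2 (0.0381), where the lone chow library is assumed to vary like the others. Those fits also called 58, 68 and 41 genes in all in this class, against 0 with the filter and all libraries; DESeq2 gave 0.0682.

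Other markers differed between libraries in the same cells, and their part in the result was not tested except as stated. Summed erythroid markers were at 4901 and 318 CPM with HFD + L-NAME and 8831 CPM with NO2-OA, against 89.9 and 43.8 CPM with chow. Cells with more than 0.5% erythroid UMIs numbered 4 and 0 with HFD + L-NAME and 10 with NO2-OA, against 0 and 0 with chow. Without them Pecam1 was at 231 and 279 CPM with HFD + L-NAME and 252 CPM with NO2-OA, against 117 and 122 CPM with chow. This step took out few cells, and the part of erythroid UMIs in the remaining cells was not tested. Erythroid-like cells themselves held 19.2 ± 13.2 CPM of Pecam1 (n = 4). Platelet markers summed to 446 and 242 CPM with HFD + L-NAME and 65.1 CPM with NO2-OA, against 508 and 259 CPM with chow, and leaving out cells with a platelet UMI gave a log2 fold change of 0.96 ± 0.23. Endothelial markers summed to at most 1.97 CPM in any library of this class. Classical monocyte markers summed to 3709 and 4590 CPM with HFD + L-NAME and 3043 CPM with NO2-OA, against 1992 and 3535 CPM with chow.

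**Figure D4:**
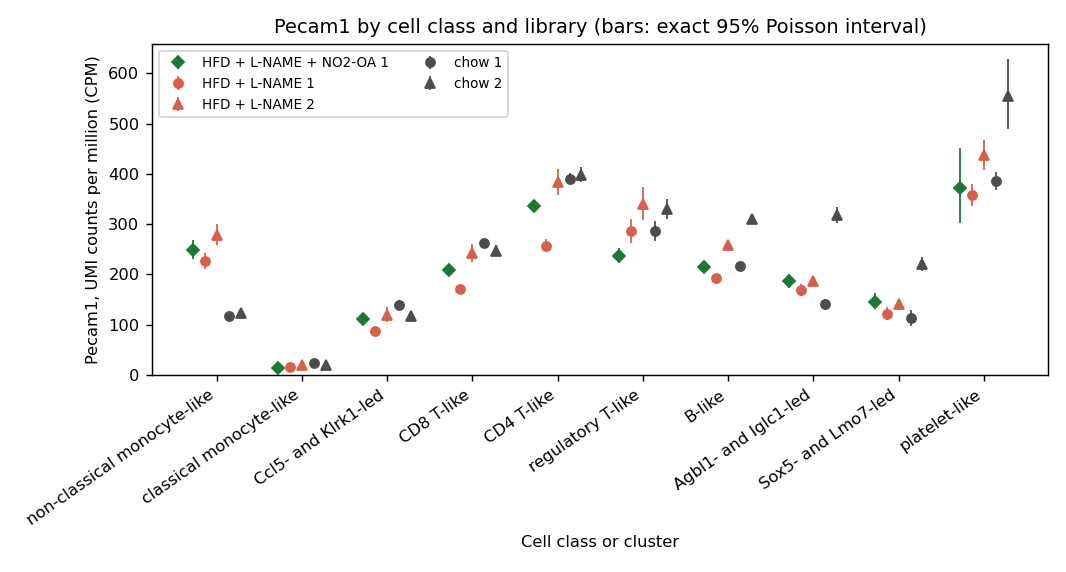
Pecam1 (y, CPM) in the tested classes (x), 1 point per library with its exact 95% Poisson interval, which covers counting error only. In non-classical monocyte-like cells the HFD + L-NAME points (227 and 279 CPM) and the NO2-OA point (249 CPM) lie above the chow points (117 and 122 CPM); in other classes the groups overlap or differ less.

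Whether the Pecam1 effect differed between classes was tested directly. Non-classical minus classical monocyte-like cells gave a difference of effects of 1.39 ± 0.25 on the log2 scale (edgeR, adjusted p = 0.120), and no member was called, beside 0.00810% of all genes. In classical monocyte-like cells Pecam1 was at 15.3 and 19.1 CPM with HFD + L-NAME, against 24.1 and 19.9 CPM with chow, so there the HFD + L-NAME libraries were the lower ones. Against B-like cells the difference was 1.23 ± 0.24 (adjusted p = 0.137), with no member called beside 0.00% of all genes. B-like cells held 192 and 259 CPM with HFD + L-NAME, against 216 and 309.6 CPM with chow. The first difference dropped to 0.40 when cells with platelet UMIs were left out, which left few classical monocyte-like cells, since at least 72.9% of them in the chow and HFD + L-NAME libraries held such a UMI. This difference passed with no filter on low counts (edgeR, adjusted p = 0.00092), within a range of 0.00092 to 1.00. With single libraries left out it ran from 1.27 to 1.51. The second passed with no filter (edgeR, adjusted p = 0.00046), within a range of 0.00046 to 1.00 where no single library was left out. With single libraries left out it ran from 0.95 to 1.52. The share of all genes called in these joint fits with no filter is not given here. In the fits of single classes, no filter gave 286 calls in 216151 tests of all genes, against 5 of 121647 with it. In the Agbl1- and Iglc1-led cluster Pecam1 was at 169 and 186 CPM with HFD + L-NAME, against 140.1 and 318 CPM with chow. Its log2 fold change there was −0.39, and −0.87 without chow replicate 1, the lower chow library.

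The other 3 cases with libraries apart concerned Spn, Itga4 and Itgb1. Spn in classical monocyte-like cells was at 26.2 and 36.5 CPM with HFD + L-NAME and 17.4 CPM with NO2-OA, against 45.05 and 52.1 CPM with chow, a log2 fold change of −0.63 ± 0.27 (edgeR, adjusted p = 1.00) and −0.70 and −0.53 within the replicate sets. In this class 7.34% of all genes were lower by the same rule. Summed non-classical monocyte markers in these cells were at 602 and 1092 CPM with HFD + L-NAME and 435 CPM with NO2-OA, against 1112 and 1349 CPM with chow; they follow the same order as Spn, and their part in the result was not tested. Itga4 in CD4 T-like cells was at 259 and 366 CPM with HFD + L-NAME and 264 CPM with NO2-OA, against 506 and 434 CPM with chow. Its log2 fold change was −0.53 ± 0.27 (adjusted p = 1.00), −0.82 and −0.27 within the sets, beside 5.59% of all genes lower in this class. Itgb1 in the Sox5- and Lmo7-led cluster was at 235 and 348 CPM with HFD + L-NAME and 176 CPM with NO2-OA, against 157 and 213 CPM with chow (0.68 ± 0.32, adjusted p = 1.00; 0.67 and 0.68 within the sets). In this cluster 4.29% of all genes were higher by the same rule. The lower HFD + L-NAME library lay close to the higher chow library. With single libraries left out the log2 fold change of Itgb1 ran from 0.33 without HFD + L-NAME replicate 2 to 1.02 without chow replicate 2.

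In the other classes no member met that rule, and the one with the smallest p was as follows. Itgal in the Agbl1- and Iglc1-led cluster was at 37.2 and 31.6 CPM with HFD + L-NAME, against 44.7 and 45.2 CPM with chow (−0.40 ± 0.21). Pecam1 in CD8 T-like cells was at 171 and 242 CPM with HFD + L-NAME, against 262 and 247 CPM with chow (−0.29 ± 0.26), and in the Ccl5- and Klrk1-led cluster was at 86.5 and 119.8 CPM with HFD + L-NAME, against 139 and 117 CPM with chow (−0.29 ± 0.25). Itgam, at a few CPM, was the member named in B-like, platelet-like and regulatory T-like cells, with log2 fold changes of 0.68, 2.11 and 1.26 and overlapping libraries. All had adjusted p of at least 0.999 with edgeR.

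NO2-OA on top of HFD + L-NAME was compared with HFD + L-NAME alone, which asks what nitro-oleic acid, an electrophilic fatty acid, added. The comparison sets 1 library against 2, so the lone library is assumed to vary like the others, and it shares the HFD + L-NAME libraries with the comparison above. None of the 98 tests was called (edgeR, adjusted p of at least 0.488), against 18 of 121647 for all genes (0.0148%), and DESeq2 called 0 members too. At an unadjusted p under 0.05 there were 2 of 98 (2.04%), beside 2.67% of all genes, Itgb1 in CD4 T-like and Spn in classical monocyte-like cells. By at least 0.5 with the libraries apart, 3 of 98 tests (3.06%) were higher and 10 (10.2%) lower, beside 10.6% of all genes on either side, so neither share was above the background. The median of the 98 was −0.10; the medians of all genes in a class ran from −0.17 in platelet-like cells to 0.00. Platelet-like cells are left out of the next counts, since their fitted values depend on the scaling. In the other 9 classes Itgb2 was below 0 in 8, between −0.43 and 0.04, Spn and Itgb7 in 8 and Icam2 in 7, and Itgal was above 0 in 7, between −0.13 and 0.20. These classes share the same libraries too. Of all genes in them, 46.9% (Sox5- and Lmo7-led) to 50.1% (CD8 T-like) were above 0.

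Pecam1 in non-classical monocyte-like cells was at 249 CPM with NO2-OA, between the 227 and 279 CPM of HFD + L-NAME, and over the 9 classes other than platelet-like cells its log2 fold change ran from −0.42 to 0.08. Spn in classical monocyte-like cells was at 17.4 CPM with NO2-OA, against 26.2 and 36.5 CPM with HFD + L-NAME (−0.80 ± 0.34, edgeR, adjusted p = 1.00; −0.60 within the replicate 1 set), beside 9.89% of all genes lower in this class. Without cells holding platelet UMIs it was −0.49, from 341 cells with NO2-OA and 61 and 24 cells with HFD + L-NAME. Over all alternatives the Spn value ran from −1.29 (counts thinned) to −0.36 (adhesion genes used in clustering). Non-classical minus classical monocyte-like cells gave a difference of effects for Spn of 0.78 ± 0.27 (adjusted p = 1.00), with no member called beside 0.00% of all genes, and against B-like cells no member was called beside 0.00679% of all genes.

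Itgb1 had libraries apart on the lower side in 3 lymphocyte classes. In CD4 T-like cells it was at 29.7 CPM with NO2-OA, against 46.7 and 61.7 CPM with HFD + L-NAME (−0.93 ± 0.35, edgeR, adjusted p = 1.00; −0.75 within the replicate 1 set), beside 9.52% of all genes lower in this class. Without chow replicate 2 the log2 fold change was −0.92. Cells with platelet UMIs made up 9.10% of this class with NO2-OA, against 63.2% and 44.4% with HFD + L-NAME. Leaving them out kept 2218 cells with NO2-OA and 437 and 153 with HFD + L-NAME, and the log2 fold change of Itgb1 was −0.48. That fit also changed which cells were compared, and the part of platelet UMIs was not tested. CD4 T-like cells also came from 2 clusters. The main one had 29.3 CPM of Itgb1 with NO2-OA, against 38.1 and 51.4 CPM with HFD + L-NAME, and the small one, with more Itgb1, held 2 cells with NO2-OA, against 97 and 28 cells with HFD + L-NAME, where it had 144 and 154 CPM. In B-like cells Itgb1 was at 35.9 CPM with NO2-OA, against 54.2 and 51.8 CPM with HFD + L-NAME (−0.56 ± 0.32, adjusted p = 1.00; −0.63 within the replicate 1 set and −0.17 without cells holding platelet UMIs), beside 9.32% of all genes. The 3 B-like clusters differed too. The one that held 3284 of the 4024 B-like cells with NO2-OA had 35.1 CPM there, against 35.8 and 40.5 CPM with HFD + L-NAME, and another had 36.1 CPM with NO2-OA, against 37.3 and 47.5 CPM with HFD + L-NAME. The third, led by Cr2 and Ighd, had more Itgb1, 73.2 CPM with NO2-OA, against 102 and 103 CPM with HFD + L-NAME, and held 67 cells with NO2-OA, against 1353 and 229 cells with HFD + L-NAME. The part of these cluster shares, and of cells with platelet UMIs, in the class values was not tested. In the Sox5- and Lmo7-led cluster Itgb1 was at 176 CPM with NO2-OA, against 235 and 348 CPM with HFD + L-NAME (−0.80 ± 0.40, edgeR, adjusted p = 1.00). It was −0.45 within the replicate 1 set and −0.46 without HFD + L-NAME replicate 2, beside 12.1% of all genes lower in this class. Cells with a platelet UMI made up 7.98% of the cluster with NO2-OA, against 61.8% and 42.7% with HFD + L-NAME, and their part was not tested. CD8 minus CD4 T-like cells gave a difference of effects for Itgb1 of 0.70 ± 0.21 (adjusted p = 0.599); no member was called in this difference, beside 0.0136% of all genes, and none for HFD + L-NAME against chow, beside 0.00681%.

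**Figure D5:**
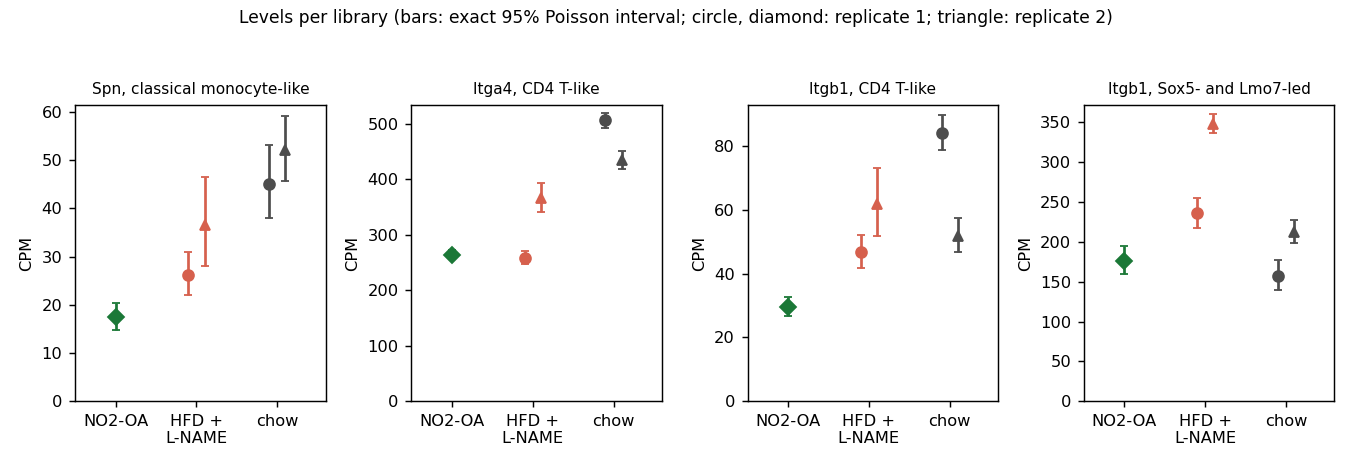
Levels (y, CPM) of Spn in classical monocyte-like cells, Itga4 and Itgb1 in CD4 T-like cells and Itgb1 in the Sox5- and Lmo7-led cluster, by group (x), 1 point per library with its exact 95% Poisson interval, which covers counting error only. Spn is lowest with NO2-OA (17.4 CPM) and highest with chow (45.05 and 52.1 CPM), and no test shown here passed the false discovery rate.

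The remaining cases had low counts or small differences. Itgb7 in non-classical monocyte-like cells was at 32.4 CPM with NO2-OA, against 43.4 and 47.7 CPM with HFD + L-NAME (−0.52 ± 0.28), and Selplg in the Sox5- and Lmo7-led cluster at 22.4 CPM with NO2-OA, against 29.1 and 32.0 CPM with HFD + L-NAME (−0.52 ± 0.38). In the CD8 T-like and the Ccl5- and Klrk1-led classes no member met the rule, and the one with the smallest p was Spn in the first, at 55.8 CPM with NO2-OA, against 61.4 and 80.5 CPM with HFD + L-NAME (−0.38 ± 0.30), and Itgb1 in the second, at 308 CPM with NO2-OA, against 205 and 273 CPM with HFD + L-NAME (0.28 ± 0.32). Itgam in B-like and regulatory T-like cells and Spn in B-like and Agbl1- and Iglc1-led cells were at 1.04 to 1.95 CPM with NO2-OA, against 1.24 to 4.20 CPM with HFD + L-NAME.

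The 3 higher cases lay in platelet-like cells, of which the NO2-OA library held 102 with 274569 UMIs, and rested on few UMIs there; in this class 35.3% of all genes were higher by the same rule. Itgam was at 18.2 CPM (5 UMIs) with NO2-OA, against 0.979 and 14.3 CPM with HFD + L-NAME, Itga4 at 36.4 CPM (10 UMIs), against 4.24 and 21.9 CPM, and Selplg at 10.9 CPM (3 UMIs), against 0.979 and 4.08 CPM. Summed CD4 T-cell markers in these cells were at 175 CPM with NO2-OA, against 16.6 and 12.8 CPM with HFD + L-NAME, and B-cell markers at 637 CPM with NO2-OA, against 99.8 and 360.1 CPM with HFD + L-NAME; their part in the result was not tested. Icam2 had 0 UMIs in these cells with NO2-OA, against 0 and 7.14 CPM with HFD + L-NAME. Since a count of 0 allows up to 3 UMIs, or 10.9 CPM in the NO2-OA library, no difference was detectable there and no fold is given. Under a replicate block 4 members, Itgal, Itgb1, Itgb2 and Pecam1, were called as lower in platelet-like cells, at log2 fold changes of −0.92 to −1.18, but that fit called 1284 of the 6955 genes of the class (18.5%), against 5 without the block. Without it their values were −0.50, −0.80, −0.71 and −0.94. These values follow edgeR's TMM scaling. In CPM Itgal was higher, at 233 CPM with NO2-OA, against 169 and 194 CPM with HFD + L-NAME, and the other 3 lay between the HFD + L-NAME libraries: Itgb1 at 2021 CPM with NO2-OA, against 1822 and 2056 CPM, Itgb2 at 382 CPM, against 309.9 and 390 CPM, and Pecam1 at 371 CPM, against 358 and 437 CPM.

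The 62 further adhesion genes, of which 42 to 52 were tested per class, were examined in the same fits. None of their 483 tests was called in either comparison with edgeR. DESeq2 called 2 for NO2-OA against HFD + L-NAME, beside 175 of 148312 tests of all genes in the 10 classes. It called 1 for HFD + L-NAME against chow, beside 33 of 148312. At an unadjusted p under 0.05 with edgeR there were 44 (9.11%, beside 2.67% of all genes) for NO2-OA against HFD + L-NAME and 19 (3.93%, beside 2.14%) for HFD + L-NAME against chow. With a replicate block edgeR called 36 of the 483 tests for NO2-OA against HFD + L-NAME, beside 1.40% of all genes. For HFD + L-NAME against chow it called 1 of the 483, beside 0.158%. Other integrin chains had 66 of 92 tests below 0 and a median of −0.51 for NO2-OA, and 66 of 92 and −0.22 for HFD + L-NAME against chow. The counts over classes given here include platelet-like cells, whose fitted values depend on the scaling. Of all genes in a class, 45.8% (platelet-like) to 50.1% (CD8 T-like) were above 0 for NO2-OA, with medians from −0.17 to 0.00. For HFD + L-NAME against chow 46.1% (B-like) to 53.5% (platelet-like) were above 0, with medians from −0.02 to 0.04. By gene, with NO2-OA the integrin chains Itga2b, which makes the alpha chain of the platelet fibrinogen receptor, Itgb3, which makes its beta chain, and Itga6 were below 0 in 10 of 10 classes and Itga2 and Itgb5 in 8 of 10, while Itga5 was above 0 in 6 of 7. The junctional molecule Esam was below 0 in 9 of 9. For HFD + L-NAME against chow, Itga2b, Itgb3 and Itga6 were also below 0 in 10 of 10 classes and Itga2 and Itgb5 in 7 of 10. Esam was below 0 in 5 of 9 there, and Itga5 above 0 in 5 of 7. The classes share the same libraries, so such counts are not separate observations. Itga2b in regulatory T-like cells was at 5.65 CPM with NO2-OA, against 30.9 and 26.0 CPM with HFD + L-NAME (−2.36 ± 0.67, adjusted p = 0.837). Cells with a platelet UMI made up 8.07% of that class with NO2-OA, against 62.5% and 43.0% with HFD + L-NAME; without such cells the log2 fold change was −0.91 ± 0.94. Zyx, a linker of integrins to actin, was below 0 in 9 of 10 classes in either comparison. It was at 11.2 CPM in CD4 T-like cells of the NO2-OA library, against 43.0 and 33.6 CPM with HFD + L-NAME (−1.86 ± 0.41, and −0.81 ± 0.43 without cells holding platelet UMIs). The part of platelet UMIs in the Itga2b and Zyx values was not tested. Integrin activation and linkage genes as a group had 159 of 234 tests below 0 with a median of −0.11 for NO2-OA, and 119 of 234 and −0.01 for HFD + L-NAME against chow. Selectins, their other ligands and junctional molecules had 50 of 98 and 46 of 98 below 0, and selectin ligand glycosylation genes 31 of 59 and 27 of 59, in that order of comparisons.

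For HFD + L-NAME against chow, 4 of the wider genes with libraries apart in monocytes and regulatory T-like cells serve as examples. Itga9 in non-classical monocyte-like cells was at 3.01 and 18.9 CPM with HFD + L-NAME and 1.09 CPM with NO2-OA, against 0.502 and 0.177 CPM with chow (4.82 ± 1.08, adjusted p = 1.00). Itga1, a collagen receptor chain, in the same cells was at 0.301 and 0.789 CPM with HFD + L-NAME and 2.18 CPM with NO2-OA, against 3.68 and 3.19 CPM with chow (−2.66 ± 0.83). Skap1, an adaptor of integrin activation, in classical monocyte-like cells was at 1.13 and 1.68 CPM with HFD + L-NAME and 8.48 CPM with NO2-OA, against 10.8 and 3.94 CPM with chow (−2.40 ± 0.67, adjusted p = 0.961). Icam1 in regulatory T-like cells, the ligand of LFA-1, was at 88.2 and 67.1 CPM with HFD + L-NAME and 51.9 CPM with NO2-OA, against 47.2 and 31.2 CPM with chow (1.02 ± 0.29, adjusted p = 0.600). None passed the test, and the first 3 rest on low counts.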

How the data were processed

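The authors deposited 1 matrix of UMI counts per gene and cell barcode for each of 5 libraries, without normalization; per the file headers they came from Cell Ranger 7.1.0, and per the submitters' processing notes reads were aligned to mm39. The annotation release is not given in the sources used here, so no mm39 coordinates are printed.

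Barcodes with at least 200 genes and under 10% mitochondrial UMIs were kept, and the top doublet scores, 0.8% per 1000 barcodes, were removed, which came to 6.79% to 14.4% per library; the score, after Scrublet's scheme, was the number of simulated doublets (2 per cell) among a cell's neighbours on 30 components. Cells were clustered with Leiden (leidenalg 0.10.2, resolution 1, 40 components of 2000 variable genes, 20 exact neighbours) without the adhesion genes and named from marker scores; naming thresholds and the splitting off of clusters led by other genes were set after the data were seen. Counts were summed per class and library and tested with edgeR 4.0.16 (TMM, quasi-likelihood, group as the only term, 5 libraries) in R 4.3.3, adjusted over all genes of the class. Effects of 2 classes were compared in a joint fit. The ± after a fold change is its size over the square root of F, an approximate standard error. Poisson intervals cover counting error only.

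The members and lists were chosen with earlier results of these data known. The rule for naming took members with a log2 fold change of at least 0.5 and libraries apart, otherwise the smallest p of the class. For the wider list it took up to 4 genes per class, of which examples are given, and 2 like-pattern genes per member, of which 2 genes are not reported here. Promoters are shown although they were planned only for members that move together; protein sequences are not used here. The alternatives were DESeq2 1.42.0, its size factors, no filter on low counts, a replicate block, the 4 libraries of chow and HFD + L-NAME alone, each library left out, doublets kept, a 5% mitochondrial limit, adhesion genes used in clustering, cells with platelet UMIs left out and thinning to the smallest library; leaving out cells above 0.5% erythroid UMIs was added after the data were seen.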

Additional observations from a re-analysis of the deposited data

How the results depend on the processing

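Counts of called members and wider-list genes were 0 in the edgeR test reported. Member counts moved in few classes and alternatives, and the count of the wider list for NO2-OA moved in 9 of the 14 run. Adhesion genes used in clustering changed the split of T cells. With NO2-OA, CD8 T-like cells fell from 1496 to 230 and CD4 T-like cells rose from 2440 to 3712. In HFD + L-NAME replicate 1 they went from 862 to 457 and from 1189 to 1584. The CD8 T-like cells of the chow libraries changed less, from 2663 and 912 to 2617 and 886. For HFD + L-NAME against chow, 1 member, Pecam1, was called in non-classical monocyte-like cells with no filter on low counts, with 0 to 1 called when each library was left out (1 without either chow library). In the Agbl1- and Iglc1-led cluster the log2 fold change of Pecam1 was −0.87 without chow replicate 1 and −0.39 with all libraries. For NO2-OA against HFD + L-NAME, 4 members were called in platelet-like cells with a replicate block, which called 1284 of 6955 genes there. In CD4 T-like cells the log2 fold change of Itgb1 was −0.92 without chow replicate 2 and −0.93 with all libraries. The difference of effects between non-classical and classical monocyte-like cells had 1 member, Pecam1, called with no filter. The difference from B-like cells had 1 with no filter, Pecam1 again. The share of all genes called in those 2 fits is not given here. Of the wider list, over all classes, HFD + L-NAME against chow gave 1 call with DESeq2, 3 with no filter and 0 to 15 with libraries left out (7 without chow replicate 1, 15 without chow replicate 2). NO2-OA against HFD + L-NAME gave 2 with DESeq2, beside 175 of 148312 tests of all genes, and 12 with no filter, beside 458 of 216151. It gave 1 with erythroid-rich cells left out, beside 22 of 120336, and 1 with counts thinned, beside 45 of 101503. Fits without a library leave its group with 1 sample, assumed to vary like the others, so their counts for the wider list are not given. The cause of the higher counts in the other alternatives was not tested. With a replicate block, the wider list had 36 calls for NO2-OA against HFD + L-NAME, beside 1708 among all genes of the 10 classes (1.40%), and 1 for HFD + L-NAME against chow, beside 192 (0.158%), and Pecam1 in non-classical monocyte-like cells had 1.07 (adjusted p = 0.192, edgeR). Same-numbered libraries deviated together with r of 0.098 to 0.71 over the classes, but only 2 pairs exist, so the numbers do not show a pairing. Itgam turned round in 2 classes where it has few UMIs: in regulatory T-like cells NO2-OA against HFD + L-NAME gave 0.20 under the block and −0.60 without it, and in B-like cells HFD + L-NAME against chow gave −0.20 to 1.30 with each library left out (−0.20 without HFD + L-NAME replicate 2) and 0.68 with all. Some levels moved by more than the spread between libraries: Itgal in non-classical monocyte-like cells was 946 CPM with doublets kept, against 1064 CPM without them, Itgb1 in platelet-like cells 1817 CPM with doublets kept and 1835 CPM at a 5% mitochondrial limit, against 1953 CPM, and Selplg in neutrophil-like cells 248 CPM with doublets kept and 313 CPM without cells holding platelet UMIs, against 294 CPM. Pecam1 in non-classical monocyte-like cells kept its direction in all alternatives, with log2 fold changes of 0.86 to 1.19. Depth limits the members near 0 UMIs in a class, such as Itgam, Itga4, Selplg and Icam2 in platelet-like cells.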
